A study of Rattus norvegicus with 6 samples.

Results

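The genes described here encode the machinery of mitosis and chromosome segregation. They were chosen as a list of 49 gene names, and 48 of these matched a row of the deposited expression table by name. All 48 had a mean of at least 1 FPKM and were among the 12713 genes tested, out of 33589 rows. No row carries the name of the remaining gene, Ccnb2, so it was not analysed here. FPKM are fragment counts scaled to gene length and to the size of the library. Levels of different genes can be compared per length as far as the listed gene lengths hold. The cells were rat mesenchymal stem cells (MSCs) from bone marrow, adherent stromal cells known as progenitors of bone, cartilage and marrow fat. They were kept for 48 h in a hydrogel that the labels call SA, at a stiffness of 2 kPa (soft, 3 libraries) or 18 kPa (stiff, 3 libraries), and polyA RNA was sequenced. No transgene, drug or other agent distinguishes the groups in the labels. Both groups share a low-glucose medium with fetal bovine serum. The sources used here do not give the strain, sex or age of the rats. Nor do they say whether the libraries came from separate animals or cultures, and the spread that the p-values rest on may therefore be technical. The design text speaks of quadruplicates, and 3 libraries per group were analysed here.

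Cells enter mitosis when the kinase CDK1, bound to a cyclin, becomes active. Its partners and the Polo and Aurora kinases then drive chromosome condensation, spindle assembly and attachment of chromosomes to the spindle at kinetochores. A checkpoint holds back the anaphase-promoting complex until every chromosome is attached, after which sister chromatids part and the cell divides. Most of these genes are transcribed late in the cell cycle, so their RNA in a bulk sample depends on how many cells are dividing. MSCs in culture are a dividing population. In bulk RNA, fewer cells in division and less RNA per dividing cell cannot be told apart.

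In stiff gel, 11 of the 48 genes rose and none fell. They were the kinases Plk1 and Cdk1, the cyclins Ccnb1 and Ccna2, the mitotic entry factor Cdca3, the passenger subunit Cdca8, the anaphase activator Cdc20, the topoisomerase Top2a, the spindle factor Tpx2, and Prc1 and Anln, which act in cytokinesis. Their mean FPKM rose between 1.58-fold (Anln) and 1.86-fold (Plk1). Among all genes tested, limma called 1.01% higher and 0.425% lower at a Benjamini-Hochberg adjusted p under 0.05. In the range of levels that the 48 genes span, 0.701% of 6986 genes were called higher.

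All 48 genes had a log2 fold change above 0 on the log2(FPKM + 1) scale, against 50.4% of all genes tested. Their median log2 fold change was 0.46, against 0.00 over all genes. In 43 of the 48, each stiff library lay above each soft library, which held for 11.7% of all genes and for 8.92% of genes in their range of levels. None of the 48 had its stiff libraries all below its soft ones, against 10.9% of all genes. At an unadjusted p under 0.05 in the limma fit, 38 of the 48 genes were higher, against 8.46% of all genes, and none was lower, against 6.95%. Of the 48, 21 had a log2 fold change of at least 0.5, against 1.89%. Without Cenpa, Cdca2 and Aspm, whose soft means were under 1 FPKM, the count of calls was 11 of 45 and the median 0.45. The list was chosen with earlier results of these data known. Its genes were measured in the same libraries, so they are not 48 separate observations, and these contrasts are descriptions.

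**Figure D1:**
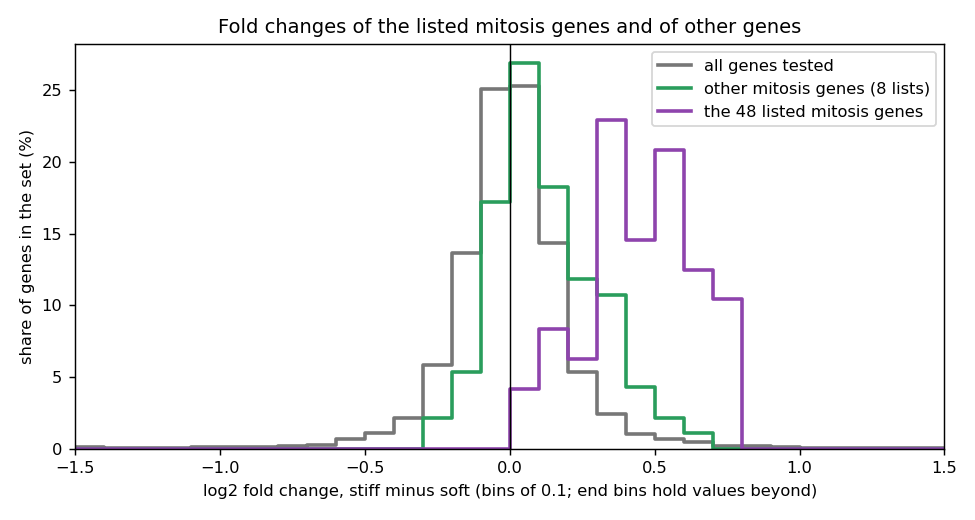
Share of genes (%, vertical axis) in bins of log2 fold change, stiff minus soft (horizontal axis), for all 12713 genes tested, the 48 listed mitosis genes and 93 other mitosis genes of 8 lists. All genes centre on 0.00, whereas the 48 genes lie between 0.01 and 0.77 with a median of 0.46.

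The number of calls changed with the libraries used, falling when any library but soft replicate 1 was left out. It was 12 without soft replicate 1, 5 without soft replicate 2 and 1 without soft replicate 3, where 0.913%, 0.339% and 0.213% of all genes were called higher. It was 1 without stiff replicate 1, 2 without stiff replicate 2 and 1 without stiff replicate 3, where 0.157%, 0.26% and 0.22% of all genes were called higher. The median log2 fold change stayed between 0.43 and 0.47 in these 6 fits. Other settings gave 7 calls with no level filter (0.346% of all genes), 24 with array weights (3.38%) and 8 with the replicate number as a block (0.614%). With 3 libraries per group an exact two-sided permutation test of a single gene cannot go below p = 0.1, so none is reported.

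The libraries held between 14966354 and 16711527 reads recovered from the FPKM. On the first principal component, soft replicate 1 was the most distant library (-20.9, against -8.22 and -7.98 for the other soft libraries and 10.3 to 14.2 for the stiff ones). It also had the lowest share of mitochondrial reads, 2.15% against 2.85% to 3.33%. The mitotic genes are of low abundance in these cells. Their mean FPKM ran from 1.09 (Aspm) to 12.4 (Cdk1) with a median of 3.30, against 10.1 for all genes tested. Between 28 reads (Cenpa) and 799 reads (Mki67) stood behind a single value, with a median of 147.5.

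Added together, the 48 genes came to 149.6, 159.4 and 157.8 FPKM in soft replicates 1 to 3 and to 232.5, 244.2 and 232.6 FPKM in stiff replicates 1 to 3. The sum was thus 1.52-fold higher in stiff gel, with every stiff library above every soft one. Soft replicate 1 was the lowest of the 6 libraries for 24 of the genes, soft replicate 2 for 11, soft replicate 3 for 12 and stiff replicate 2 for 1. Stiff replicate 2 was the highest for 28, stiff replicate 3 for 14 and stiff replicate 1 for 6. No soft library was the highest for any of them.

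**Figure D2:**
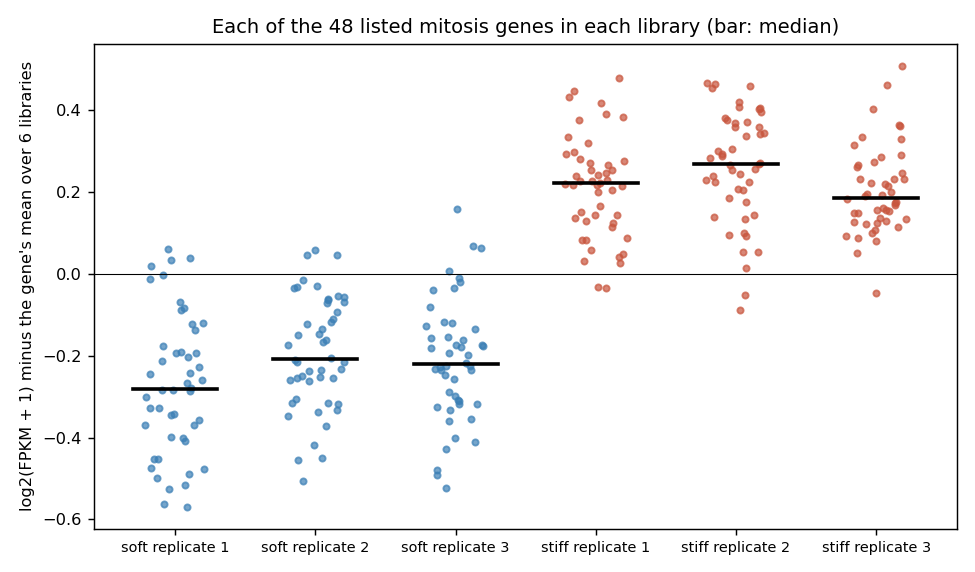
Each point is 1 of the 48 genes, shown as log2(FPKM + 1) minus that gene's mean over the 6 libraries (vertical axis), for each library (horizontal axis), with a bar at the median. The medians lie at -0.28, -0.21 and -0.22 in soft replicates 1 to 3 and at 0.22, 0.27 and 0.19 in stiff replicates 1 to 3.

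Mitotic entry kinases, their cyclins and their phosphatases were grouped with the entry factor Cdca3. This group held 11 measured genes, of which 5 rose, Cdca3 among them, and 6 did not pass the test. Plk1, the Polo kinase that acts from mitotic entry to cytokinesis, was at 4.63, 4.04 and 4.78 FPKM in the soft libraries and at 8.28, 8.33 and 8.47 FPKM in the stiff ones. The stiff values were close together (SD 0.0954 FPKM, n = 3) and well above every soft value (log2 fold change 0.77, SE 0.0792, limma adjusted p = 0.00816). Plk1 (ENSRNOG00000018815) lies on chromosome 1 from 192115966 to 192125989. The table does not say which genome build its coordinates are from.

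Cdk1, the kinase that triggers mitosis, was the most abundant of the 48 genes. It was at 9.42, 9.39 and 9.49 FPKM in soft gel and at 14.2, 16.3 and 15.8 FPKM in stiff gel (log2 fold change 0.65, SE 0.0694, limma adjusted p = 0.0086). The soft libraries were almost level with each other, and the lowest stiff library was stiff replicate 1. Cdk1 (ENSRNOG00000000632) lies on chromosome 20 from 20576377 to 20591549. Ccnb1, which encodes cyclin B1, the partner of CDK1 in mitosis, was at 5.27, 5.06 and 5.59 FPKM in soft gel and at 10.0, 9.82 and 8.44 FPKM in stiff gel (0.72, SE 0.0854, limma adjusted p = 0.0129). Its groups were far apart, with stiff replicate 3 the lowest of the stiff libraries.

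Ccna2, encoding cyclin A2, which pairs with CDK2 in S phase and CDK1 in late G2, was at 3.68, 3.90 and 3.69 FPKM in soft gel and at 6.14, 6.60 and 6.07 FPKM in stiff gel (0.61, limma adjusted p = 0.0154). The whole of Ccna2 lies inside Exosc9, a gene on the opposite strand with means of 12.4 FPKM (soft) and 13.2 FPKM (stiff). How strand was handled in counting is not given in the sources here, and the value of Ccna2 is therefore uncertain. Cdca3, an adaptor for the degradation of the CDK1 inhibitor WEE1, was at 3.63, 5.07 and 3.79 FPKM in soft gel and at 7.74, 8.21 and 7.13 FPKM in stiff gel (0.76, limma adjusted p = 0.0332). Soft replicate 2 was the highest soft library for Cdca3 and still lay below every stiff one.

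Nek2, a centrosome kinase, was at 1.34, 1.70 and 1.80 FPKM in soft gel and 3.18, 2.32 and 3.41 FPKM in stiff gel, a 1.84-fold ratio of means that did not pass (limma adjusted p = 0.113). Its ratio was close to that of Plk1, but its log2 fold change on the log2(FPKM + 1) scale was 0.60, against 0.77 for Plk1. The stiff libraries of Nek2 were also more widely spread. Why Nek2 did not pass was not tested. Aurka, the spindle pole kinase, was at 2.99 ± 0.661 FPKM in soft gel and 4.20 ± 0.0813 FPKM in stiff gel (SD, n = 3 in each group), which did not pass (0.40, limma adjusted p = 0.207). The kinase genes Melk and Pbk each had a log2 fold change of 0.37, and in Pbk the groups overlapped. The phosphatases that activate CDK1 were closer to level. Cdc25c was at 2.64 ± 0.280 and 3.26 ± 0.276 FPKM (log2 fold change 0.23, 95% interval -0.02 to 0.47) and Cdc25b at 4.15 ± 0.0666 and 4.52 ± 0.466 FPKM (0.10, interval -0.11 to 0.31).

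**Figure D3:**
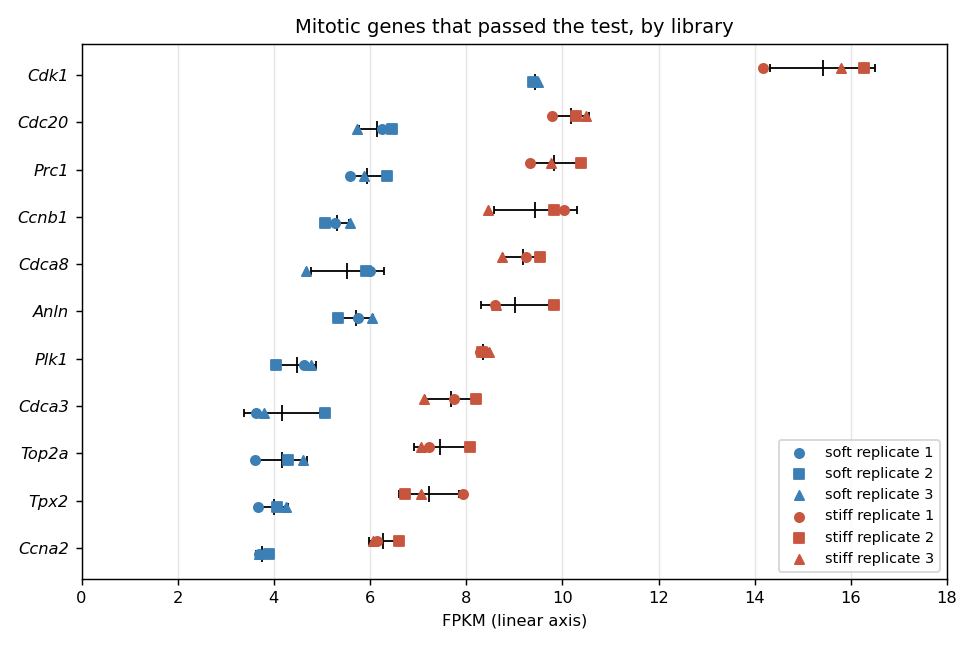
FPKM (horizontal axis, linear) in each library for the 11 genes that passed the test, with marker shape for the replicate and a black tick and bar for the mean and SD of 3 libraries. In each of the 11 genes the 3 stiff libraries lie above the 3 soft ones, from Ccna2 at 6.27 FPKM to Cdk1 at 15.4 FPKM in stiff gel.

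Neither transcription factor of the list passed the test. Foxm1, which drives late cell cycle genes, was at 2.32, 2.71 and 2.25 FPKM in soft gel and at 2.87, 3.38 and 3.41 FPKM in stiff gel (log2 fold change 0.30, 95% interval 0.05 to 0.55, limma adjusted p = 0.246). Mybl2, which encodes B-MYB, a partner of the MuvB complex at the same genes, was at 3.34, 2.44 and 3.26 FPKM and at 3.51, 3.40 and 3.62 FPKM (0.18, interval -0.09 to 0.45, limma adjusted p = 0.513). In both genes all stiff libraries lay above all soft ones, though for Mybl2 by a narrow margin.

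In the chromosomal passenger complex, which corrects faulty attachments and later guides cytokinesis, 1 of 4 genes rose. Cdca8, encoding borealin, was at 6.01, 5.92 and 4.66 FPKM in soft gel and at 9.25, 9.54 and 8.74 FPKM in stiff gel (0.65, SE 0.0997, limma adjusted p = 0.0319). Its soft replicate 3 was the lowest library. The kinase of the complex, Aurkb, was at 2.16, 2.13 and 2.25 FPKM and at 3.45, 2.96 and 2.93 FPKM (0.37, limma adjusted p = 0.142), and Birc5, encoding survivin, at 4.44 ± 0.452 and 6.69 ± 1.31 FPKM (0.49, limma adjusted p = 0.150). Incenp, the scaffold of the complex, was near level between the gels, at 6.05, 5.32 and 6.17 FPKM in soft gel and 5.70, 5.62 and 6.35 FPKM in stiff gel. Its groups overlapped, and its log2 fold change of 0.01 had a 95% interval of -0.19 to 0.21. The sign of that value changed to below 0 at equal FPKM sums, with array weights and with voom.

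None of the 7 centromere and outer kinetochore genes passed limma's test over all genes. All 7 had every stiff library above every soft one, against 11.7% of all genes. At an unadjusted p under 0.05, 6 were higher, against 8.46% of all genes. With voom on recovered reads 2 of the 7, Cenpe and Cenpf, were called higher, against 1.49% of all genes. Nuf2, a subunit of the NDC80 complex that binds microtubules, was at 2.05, 2.78 and 2.76 FPKM in soft gel and at 4.01, 4.39 and 3.98 FPKM in stiff gel (0.54, limma adjusted p = 0.0791). Spc25 had the largest log2 fold change of the 7 (0.65, limma adjusted p = 0.127), at 1.52, 2.58 and 1.91 FPKM and then 4.02, 4.10 and 2.96 FPKM, and its partner Spc24 was at 5.04 ± 0.978 and 7.55 ± 0.602 FPKM. Ndc80 itself was at 1.70 ± 0.346 and 2.31 ± 0.255 FPKM. Cenpa, the histone H3 variant that marks centromeres, was at 1.13, 0.896 and 0.683 FPKM in soft gel and 2.02, 1.64 and 1.47 FPKM in stiff gel (limma adjusted p = 0.178). Cenpe, a kinetochore motor, was 1.57-fold higher in mean FPKM and Cenpf, a large kinetochore protein, 1.66-fold, with limma adjusted p-values of 0.173 and 0.139.

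The spindle assembly checkpoint likewise had no limma call among 4 genes. At an unadjusted p under 0.05, 3 were higher, against 8.46% of all genes. Voom called 2 higher, Bub1 and Ttk, against 1.49% of all genes. Bub1, a checkpoint kinase at kinetochores, was at 1.79, 2.00 and 2.16 FPKM in soft gel and at 3.26, 3.53 and 3.08 FPKM in stiff gel (0.52, limma adjusted p = 0.0615). Ttk, the kinase that starts checkpoint signalling, was at 1.26 ± 0.0871 and 2.12 ± 0.128 FPKM (0.46, limma adjusted p = 0.110). Bub1b, encoding the inhibitor BUBR1, was at 1.41 ± 0.205 and 2.06 ± 0.180 FPKM. Mad2l1, which encodes the MAD2 protein that blocks CDC20, was at 3.93, 4.54 and 3.88 FPKM and 4.24, 4.74 and 4.95 FPKM. For Mad2l1 the groups overlapped, and its log2 fold change of 0.14 had a 95% interval of -0.08 to 0.36.

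Of the 4 genes of anaphase and sister separation, Cdc20 rose. This activator of the anaphase-promoting complex was at 6.25, 6.46 and 5.72 FPKM in soft gel and at 9.77, 10.3 and 10.5 FPKM in stiff gel (0.65, SE 0.0722, limma adjusted p = 0.0106). Cdc20 (ENSRNOG00000028415) lies on chromosome 5 from 137260739 to 137265015. Ube2c, the ubiquitin-conjugating enzyme of that complex, was very even within groups, at 2.28, 2.26 and 2.23 FPKM and at 3.20, 3.42 and 3.57 FPKM (0.43, limma adjusted p = 0.0784). Pttg1, encoding securin, was at 4.11, 2.57 and 2.71 FPKM and at 4.89, 5.27 and 4.52 FPKM (0.53, limma adjusted p = 0.161), with soft replicate 1 the high one of its group. Espl1, encoding separase, the protease that securin restrains, was at 1.05 ± 0.156 and 1.34 ± 0.111 FPKM (0.19, 95% interval -0.11 to 0.50).

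Among 7 genes of chromosome structure, Top2a rose. Top2a, the topoisomerase that untangles sister DNA, was at 3.61, 4.30 and 4.61 FPKM in soft gel and at 7.23, 8.07 and 7.06 FPKM in stiff gel (0.71, SE 0.0989, limma adjusted p = 0.0232). Subunits of condensin, the ring complex that compacts mitotic chromosomes, did not pass. Smc4 was at 6.21, 9.60 and 8.39 FPKM and at 10.3, 11.2 and 10.4 FPKM (0.37, limma adjusted p = 0.262), with soft replicate 1 well below the other soft libraries. Smc2 was at 5.25 ± 0.588 and 6.16 ± 0.686 FPKM with overlapping groups (0.20, 95% interval -0.06 to 0.45). Ncapg was at 2.09 ± 0.476 and 2.90 ± 0.196 FPKM and Ncaph at 1.96 ± 0.0454 and 2.86 ± 0.342 FPKM. Mki67, which coats mitotic chromosomes and is the usual marker of dividing cells, was at 3.57 ± 0.288 FPKM in soft gel and at 4.65 ± 0.325 FPKM in stiff gel. Its stiff libraries all lay above its soft ones, but the difference did not pass over all genes (0.31, 95% interval 0.09 to 0.52, limma adjusted p = 0.182). Cdca2, a phosphatase-targeting chromatin protein, had the largest ratio of mean FPKM of the 48 genes, 1.94, at 0.785 ± 0.242 and 1.52 ± 0.0536 FPKM (limma adjusted p = 0.178).

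Tpx2 was the 1 of 5 spindle genes that rose. Tpx2, which activates Aurora A on spindle microtubules, was at 3.68, 4.07 and 4.24 FPKM in soft gel and at 7.92, 6.72 and 7.05 FPKM in stiff gel (0.72, SE 0.0893, limma adjusted p = 0.0154). The other 4 all had stiff libraries above the soft ones. Ckap2, a microtubule stabiliser, was at 5.54, 5.82 and 7.21 FPKM and at 9.51, 10.5 and 8.67 FPKM (0.56, limma adjusted p = 0.0628). Hmmr, a spindle pole protein, was at 2.81 ± 0.649 and 4.67 ± 0.605 FPKM (0.58, limma adjusted p = 0.128). Nusap1, which bundles microtubules near chromosomes, was at 1.10 ± 0.0987 and 1.91 ± 0.123 FPKM (0.47), and Aspm, a spindle pole organiser, at 0.879 ± 0.0356 and 1.30 ± 0.0961 FPKM (0.29).

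Cytokinesis had 2 rises among 4 genes. Prc1, which bundles the microtubules of the central spindle, was at 5.57, 6.36 and 5.88 FPKM in soft gel and at 9.33, 10.4 and 9.77 FPKM in stiff gel (0.64, SE 0.0767, limma adjusted p = 0.0132). Anln, encoding anillin, the scaffold of the contractile ring, was at 5.75, 5.33 and 6.04 FPKM and at 8.60, 9.83 and 8.62 FPKM (0.58, SE 0.0824, limma adjusted p = 0.0243). Ect2, the exchange factor that activates RhoA at the cell equator, was at 1.36 ± 0.0741 and 2.17 ± 0.0866 FPKM (0.42, limma adjusted p = 0.122). Its activator Racgap1 was at 1.26, 1.18 and 0.585 FPKM and at 1.64, 1.39 and 1.48 FPKM (0.34, 95% interval -0.06 to 0.73), where soft replicate 3 lay far below the rest.

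**Figure D4:**
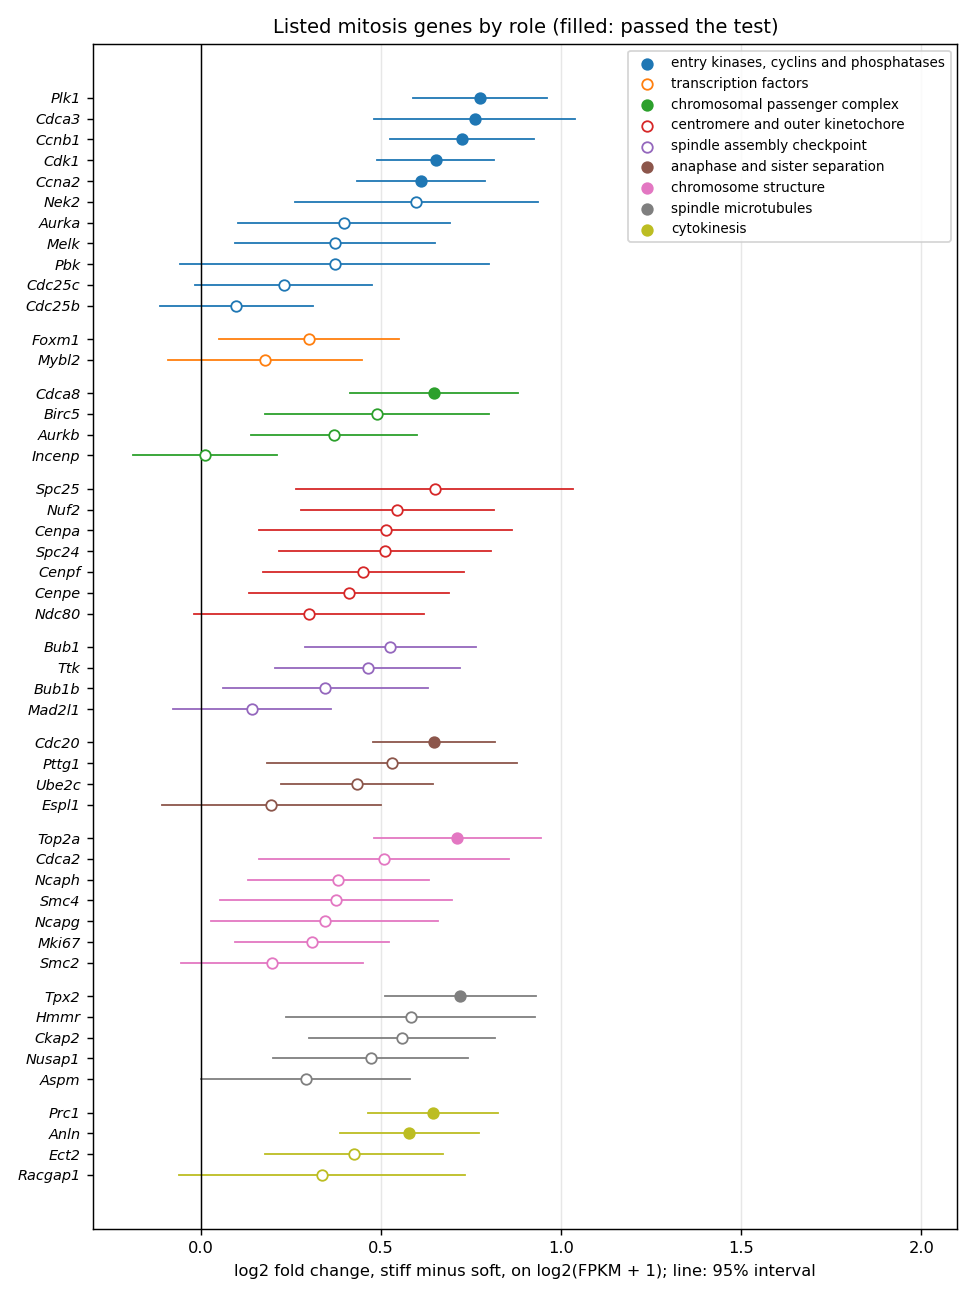
Log2 fold change, stiff minus soft, on the log2(FPKM + 1) scale (horizontal axis) for the 48 genes, grouped by role in 9 colours, with lines for the 95% interval and filled points for the 11 that passed the test. The median by role runs from 0.24 for the 2 transcription factors to 0.60 for the entry kinases, cyclins and phosphatases, grouped with Cdca3. Differences between roles were not tested.

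The calls within the 11 were not equally firm. In the 6 fits that each left out a library, Plk1 and Cdk1 were called in 4, Ccnb1, Cdc20 and Prc1 in 2, and the other 6 in 1. The highest adjusted p in those fits was 0.0581 for Plk1, 0.0620 for Cdk1 and 0.133 for Cdca3. With no level filter Cdca3, Cdca8, Top2a and Anln were not called (limma adjusted p = 0.0968, 0.0883, 0.0705 and 0.0684), and without the variance trend Cdca3 was not (0.0501). Voom on recovered reads, which weighs each value by its read depth, called 20 of the 48 (1.49% of all genes), including all 11, with a median log2 fold change of 0.63 on a scale with no pseudocount of 1 FPKM.

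**Figure D5:**
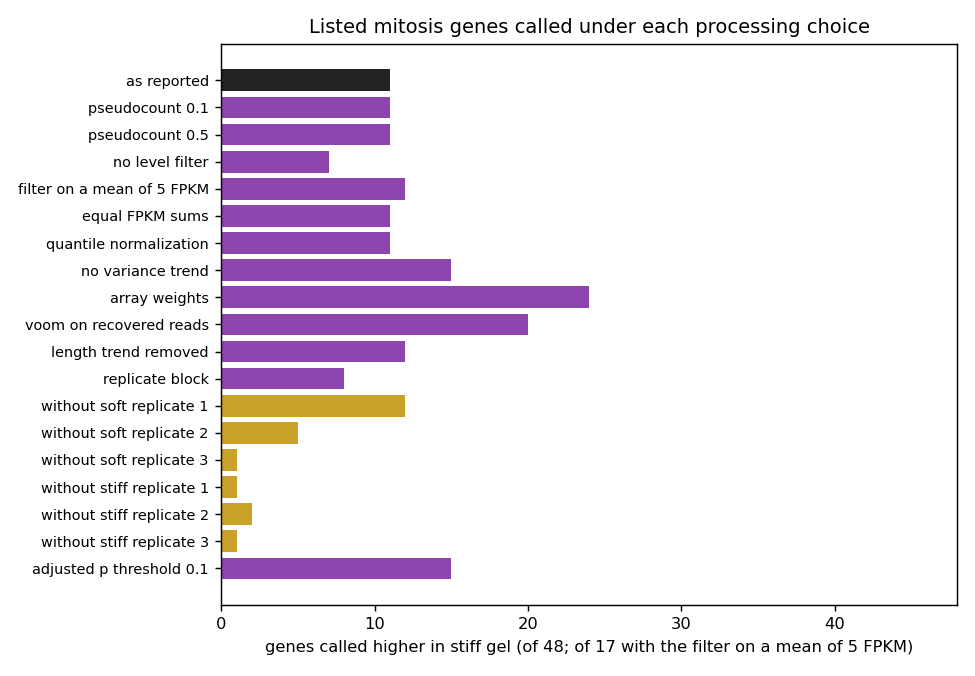
Number of the 48 genes called higher in stiff gel (horizontal axis, from 0) under each processing choice (vertical axis), with the fit as reported in black and fits that leave out 1 library in yellow. The count is 11 as reported, runs from 1 to 12 without a library and reaches 24 with array weights.

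Many late cell cycle genes are known to share a promoter element, the cell cycle genes homology region. Its usual core is TTTGAA, often near CCAAT boxes that bind the factor NF-Y. RefSeq promoter windows of build GRCr8 ran from 250 bases before to 50 after the gene start. Genes listed with several windows were left out, and 39 of the 48 genes matched a single window. Those without such a match were Ccna2, Pbk, Foxm1, Aurkb, Incenp, Ube2c, Cdca2, Tpx2 and Racgap1. TTTGAA, searched on both strands, was present in 28 of the 39 windows (71.8%), against 18.3% of all 33469 windows and 11.4% of the 8157 windows of genes tested here. The 8157 were limited to genes with a single window, as the 39 were, but the 33469 were not. CCAAT, on both strands, was present in 29 (74.4%), against 37.5% and 38.1%, and both motifs together in 23 (59.0%), against 7.41% and 4.65%. TTCGAA, a variant of the same element, was in 3 of the 39 (7.69%), against 1.69% of all windows and 2.19% of those of genes tested. GCGGGAA, an E2F-type site, was in 2 (5.13%), above the 4.21% of all windows and below the 8.75% of those of genes tested. Each motif was counted on its own, so matches of different motifs may overlap. Of 33 TTTGAA matches, 19 lay within 50 bases of the gene start, with a median at -29. A match is only a match of letters, and no binding was measured here.

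The promoters of Plk1, Cdk1, Cdc20 and Prc1 are shown because they belong to the 4 called genes with the smallest p that hold both motifs. Each runs 5′ to 3′ on the strand of the gene, with TTTGAA and CCAAT in capitals on either strand (TTCAAA and ATTGG where the match is on the other strand). They lie at chr1:186147408-186147707 on the plus strand (Plk1), chr20:19265043-19265342 on the plus strand (Cdk1), chr5:137255750-137256049 on the minus strand (Cdc20) and chr1:143659231-143659530 on the plus strand (Prc1) of GRCr8.
Plk1: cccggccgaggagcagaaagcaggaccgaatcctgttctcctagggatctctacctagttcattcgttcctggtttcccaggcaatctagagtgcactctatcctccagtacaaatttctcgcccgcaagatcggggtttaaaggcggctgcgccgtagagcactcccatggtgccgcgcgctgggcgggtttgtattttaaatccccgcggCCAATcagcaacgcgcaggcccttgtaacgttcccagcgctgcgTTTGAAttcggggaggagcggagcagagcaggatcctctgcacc
Cdk1: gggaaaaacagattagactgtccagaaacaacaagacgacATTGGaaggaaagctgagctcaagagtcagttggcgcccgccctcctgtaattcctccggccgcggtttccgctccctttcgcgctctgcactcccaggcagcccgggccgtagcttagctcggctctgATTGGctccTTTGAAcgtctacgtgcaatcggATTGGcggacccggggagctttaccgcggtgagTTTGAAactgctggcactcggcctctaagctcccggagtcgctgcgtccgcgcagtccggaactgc
Cdc20: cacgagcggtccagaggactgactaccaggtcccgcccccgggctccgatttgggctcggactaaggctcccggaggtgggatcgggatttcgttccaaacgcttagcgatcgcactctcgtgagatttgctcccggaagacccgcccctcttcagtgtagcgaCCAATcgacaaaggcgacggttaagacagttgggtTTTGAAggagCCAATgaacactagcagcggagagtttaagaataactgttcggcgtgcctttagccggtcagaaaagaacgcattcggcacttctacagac
Prc1: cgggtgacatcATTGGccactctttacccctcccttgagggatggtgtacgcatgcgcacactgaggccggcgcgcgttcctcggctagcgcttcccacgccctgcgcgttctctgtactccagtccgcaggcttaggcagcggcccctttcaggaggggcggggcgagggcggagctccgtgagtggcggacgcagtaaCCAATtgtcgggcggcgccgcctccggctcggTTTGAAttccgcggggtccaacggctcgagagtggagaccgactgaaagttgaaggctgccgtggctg
In Plk1 the TTTGAA match began at position 7, counting the gene start as 1, and the CCAAT match 38 bases before the start. In Prc1 the TTTGAA match began 18 bases before the start, in Cdc20 51 bases before it, and Cdk1 had a pair of matches, at 72 and 16 bases before it. Of the 9 called genes with a window used here, 7 held TTTGAA and 8 held CCAAT.

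Other genes of mitosis were taken from 8 lists that hold none of the 48. Of 93 such genes tested, limma called 0, against 1.01% of all genes higher and 0.425% lower. Voom also called 0, against 1.49% of all genes higher. At such low shares a count of 0 says little about the 93. At an unadjusted p under 0.05, 19 were higher and 1 lower, against 8.46% and 6.95% of all genes. Their median log2 fold change was 0.10, and 70 lay above 0, against 50.4% of all genes. In 28 of the 93 all stiff libraries lay above all soft ones, against 11.7% of all genes. In 2 all lay below, against 10.9%. Single genes, picked here after their values were seen, lay above the median log2 fold change of the 48 genes, 0.46. Oip5, which helps load CENPA, had the largest log2 fold change of the 93 (0.64, 2.13-fold in mean FPKM, limma adjusted p = 0.266, with overlapping groups). It rested on only 13, 16 and 7 reads in the soft libraries and 14, 25 and 36 in the stiff ones. Cep55, an abscission protein, was at 0.52, Mis18a, another CENPA loading factor, at 0.52 and Cenpt at 0.47. Below the level filter, and so not tested, Cenpk was 2.17-fold, Sgo1 2.03-fold and Sass6 2.23-fold higher in mean FPKM. Their soft means were only 0.615, 0.442 and 0.214 FPKM. Of the others under the filter, Stil, Esco2, Mastl and Cenpp were 1.60-fold (Stil) to 1.97-fold (Cenpp) higher. Cenpp rested on only 2, 13 and 12 reads in the soft libraries and 12, 26 and 14 in the stiff ones. Pkmyt1 (0.943-fold), Knl1 (1.18-fold) and Sgo2 (1.36-fold) had overlapping groups. The difference between these lists and the 48 genes was not tested. Subunits and regulators of the anaphase-promoting complex numbered 17, with a median of 0.05 and 1 gene higher at an unadjusted p under 0.05. Anapc5 was at 95.3 and 102.8 FPKM and the ubiquitin enzyme Ube2s at 81.2 and 85.9 FPKM in soft and stiff gel. Cohesin, the ring that holds sister chromatids together, and its regulators had a median of 0.03 over 12 genes, with Rad21 at 29.1 and 31.5 FPKM and Smc1a at 23.5 and 22.1 FPKM.

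At an unadjusted p under 0.05 in the limma fit, 8.46% of all genes tested were higher, the share to set beside each list here. The inner centromere and kinetochore core came closest to the 48 genes, with 10 of 19 genes higher at an unadjusted p under 0.05, a median of 0.30 and no call. Its most abundant genes were nonetheless near level, with Zwint at 34.6 and 35.9 FPKM and Mis12 at 18.8 and 18.5 FPKM. Other checkpoint proteins had 4 of 8 genes higher at an unadjusted p under 0.05 and a median of 0.19, with Bub3 at 15.1 and 16.1 FPKM and Zw10 at 7.15 and 8.29 FPKM. The DREAM and MuvB complex, which represses or activates late cell cycle genes, had a median of 0.08 over 11 genes and 0 at an unadjusted p under 0.05, with Tfdp1 at 30.0 and 32.8 FPKM and Rbbp4 at 29.5 and 32.3 FPKM. Other regulators of entry and exit had a median of 0.06 over 11 genes (1 higher at an unadjusted p under 0.05), with Ppp1ca at 119.3 and 125.0 FPKM and Arpp19 at 101.0 and 97.3 FPKM. The centrosome and spindle pole list had a median of 0.01 over 11 genes (3 higher at an unadjusted p under 0.05), with Numa1 at 33.2 and 29.6 FPKM and Ckap5 at 16.9 and 17.5 FPKM. The other condensin subunits had a median of 0.19 over 4 genes (0 at an unadjusted p under 0.05), with Ncaph2 at 20.0 and 19.0 FPKM and Ncapd2 at 5.31 and 6.16 FPKM.

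The labelled cell type was checked against its markers. All 9 mesenchymal stromal markers were detected, with a summed level of 1337.0 to 1359.3 FPKM in soft and 1474.9 to 1483.5 FPKM in stiff gel, led by Thy1 and Itgb1, and limma called none of the 9 (2 higher at an unadjusted p under 0.05, 0 with voom). Macrophage and leukocyte markers were also present, 11 of 15 over the filter. Their summed level was 378.6 to 386.2 FPKM in soft and 330.3 to 357.8 FPKM in stiff gel, with no overlap. The single genes were mixed. Of the 11 over the filter, 4 had all stiff libraries below all soft ones (10.9% of all genes). In 1 all lay above (11.7%), and 6 overlapped. Limma called the macrophage gene Cd68 lower (40.4 and 27.7 FPKM) and Cd53 lower (12.6 and 8.20 FPKM), and Adgre1 higher (69.0 and 84.9 FPKM). Over all genes, limma called 0.425% lower and 1.01% higher. At an unadjusted p under 0.05, 4 of the 11 were lower and 1 higher, against 6.95% and 8.46% of all genes. Lyz2, the most abundant of these markers, was at 148.9 and 119.4 FPKM (limma adjusted p = 0.0606), and voom called it lower along with Cd68 and Cd53, and Adgre1 higher. The part of these cells in the mitotic differences was not tested. Endothelial markers summed to at most 1.60 FPKM in any library, erythroid markers to at most 0.243 FPKM and lymphocyte markers to at most 0.551 FPKM, with Cldn5, Hba-a1, Hba-a2, Hbb, Cd3e, Cd3d and Ms4a1 listed at 0 in all libraries. Itgam, Pecam1 and Cd79a matched no row by name and were not analysed here.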

How the data were processed

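PolyA RNA of 6 libraries was compared, 3 soft and 3 stiff. The authors deposited FPKM per gene. Per the submitters' processing notes, Bowtie 0.12.9, Cufflinks 2.1.1 and HTSeq were used; the builds listed there, mm10 and GRCm38, are of mouse, although the gene identifiers are of rat. Only genes averaging 1 FPKM or more over the 6 libraries were tested, as log2(FPKM + 1) with limma 3.58.1 in R 4.3.3, fitting stiffness alone, with a variance trend, two-sided tests and Benjamini-Hochberg adjustment over all 12713 genes at 0.05. Fold changes on this scale understate the change of low genes. Multiplied by gene length, 100.0% of values above 0 were whole multiples of 1 step per library, within 0.0001, which gave the reads per gene used for depth and voom. The script was tested on simulated data. The listed genes, their roles, the 8 pathway lists and the 5 marker lists were chosen with earlier results of these data known. All 48 matched genes are named. Called genes have their value in each library; in each other list, called genes or the 2 most abundant are named. Alternatives changed the pseudocount, level filter, scaling, variance model, library weights, length trend, threshold and block, and left out each library.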

Additional observations from a re-analysis of the deposited data

How the results depend on the processing

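No listed gene was called lower under any of the 18 alternatives. The count of 11 called higher was 7 with no level filter, 24 with array weights and 20 with voom, and ran from 1 to 12 without a library; it stayed within 1.5 times of 11 under the others. Their median log2 fold change, 0.46, was 0.62 and 0.54 at pseudocounts of 0.1 and 0.5, 0.63 with voom and 0.64 for the 17 genes left by a filter on a mean of 5 FPKM, and ran from 0.43 to 0.47 without a library. Over all genes, 128 were called higher and 54 lower; these counts were 71 and 21 with no level filter, 85 and 27 without the variance trend, 430 and 255 with array weights, and 242 and 140 at a threshold of 0.1. Voom called 190 higher and 127 lower. Without a library, 20 to 116 were higher and 7 to 43 lower. Equal FPKM sums gave 88 higher and 68 lower, and quantile normalization 103 and 68. With the replicate number as a block, 78 genes were higher and 27 lower, and 8 of the 48, which lost Top2a, Tpx2 and Anln. The labels do not say whether equal numbers pair the libraries. Deviations from the group means of same-numbered libraries correlated across genes at 0.06, 0.12 and -0.08. Soft replicate 1 correlated best with stiff replicate 3 (0.14). These values show no clear pairing, but a weak pairing or one limited to some genes could be missed this way. Incenp changed sign, to a log2 fold change of -0.032 at equal FPKM sums, -0.025 with array weights and -0.0028 with voom, and ran from -0.046 (without soft replicate 2) to 0.044 (without soft replicate 3) when a library was left out, with -0.037 without stiff replicate 3. The cause of these changes was not tested. The lowest value rested on 28 reads and the median value on 147.5, and the effect of depth on the calls was not tested.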

Other observations

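Subunits that work in a shared complex differed in RNA level per length. In the NDC80 complex, soft gel means were 5.04 FPKM for Spc24, 2.53 for Nuf2, 2.01 for Spc25 and 1.70 for Ndc80. In condensin, Smc4 was at 8.07 and Smc2 at 5.25 FPKM, while Ncapg was at 2.09 and Ncaph at 1.96 FPKM. In the chromosomal passenger complex, Incenp was at 5.85, Cdca8 at 5.53, Birc5 at 4.44 and Aurkb at 2.18 FPKM in soft gel. In stiff gel, Cdca8 was at 9.18 FPKM and Birc5 at 6.69 FPKM, both above Incenp at 5.89 FPKM, so the order of the 3 means changed. The order did not hold in each library. In soft replicate 2, Cdca8 (5.92 FPKM) was already above Incenp (5.32 FPKM). In stiff replicate 1, Birc5 (5.61 FPKM) was below Incenp (5.70 FPKM). All these levels depend on the listed gene lengths, for example 4404 bases for Aurkb and 873 for Birc5. Aurkb had 160, 154 and 161 reads in soft replicates 1 to 3, more than the 72, 63 and 57 of Birc5. Whether the listed lengths are right was not tested. These orders are descriptions with no test.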
